A study of Rattus norvegicus with 23 samples.

Results

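The genes described here are 5 genes that mark neural stem cells or belong to the Notch pathway: Nes (ENSRNOG00000018681), Sox2 (ENSRNOG00000012199), Notch1 (ENSRNOG00000019322), Hes1 (ENSRNOG00000001720) and Vim (ENSRNOG00000018087). They were chosen by identifier from the 32883 rat genes of the count table. Each had at least 10 counts in all 23 libraries, against a requirement of 10 counts in at least 2 libraries, so all 5 were tested. The symbols came with the list of identifiers. Neither the count table nor the reference gene table used here pairs Ensembl identifiers with symbols (0 of 32883 identifiers matched), so the names could not be checked, and every statement below on a named gene is on the identifier given here.

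The cells were wild-type neural stem cells from the hippocampus of adult female rats, grown on soft or stiff substrates and sampled at 0, 12, 24 or 36 h. All groups carry the same treatment label: a medium for mixed differentiation, in which 1 uM retinoic acid, a vitamin A derivative that promotes differentiation, and 1% FBS (fetal bovine serum) were added to DMEM-F12 holding N2. Each pairing of substrate and time has 3 libraries, numbered as rounds 1 to 3, except soft at 12 h, which has 2 (rounds 1 and 3). The labels used here do not state how stiff the substrates were, what the cells had undergone by 0 h or whether rounds are separate cultures, so p-values measure the spread between these libraries, which may be technical.

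Neural stem cells are multipotent cells that keep themselves in number and give rise to neurons, astrocytes and oligodendrocytes. In the Notch pathway a ligand on a neighbouring cell binds the receptor, the receptor is cut, and its intracellular part moves to the nucleus, where it joins the DNA-binding protein RBPJ and switches on targets such as Hes1. Hes1 protein represses genes that drive neuronal differentiation and also represses its own gene, so its mRNA can rise and fall within hours. Sox2 is a transcription factor of neural stem and progenitor cells. Nes and Vim encode nestin and vimentin, intermediate filament proteins of the cytoskeleton that are found together in neural progenitors.

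The sequence before the start of Hes1 is shown because Hes1 had the largest change of the 5 genes and was the only one whose window held the 6-letter core bound by RBPJ. It holds 250 bases, from RefSeq on build GRCr8, chr11:84213046-84213295, minus strand, printed 5′ to 3′ and ending at the base before the annotated start. The capitals mark matches to TGGGAA.
Hes1: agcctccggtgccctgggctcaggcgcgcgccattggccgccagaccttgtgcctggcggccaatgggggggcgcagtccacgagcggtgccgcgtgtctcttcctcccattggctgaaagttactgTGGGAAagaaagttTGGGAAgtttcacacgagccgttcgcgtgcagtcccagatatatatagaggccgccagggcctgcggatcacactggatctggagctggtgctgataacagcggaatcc

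Both matches lie on the strand of the gene, from 123 to 118 and from 109 to 104 bases before the start. Over 33469 promoter windows of the same length, searched on both strands, 22.1% held TGGGAA at least once and 2.7% held it 2 or more times. The windows of Nes, Sox2, Notch1 and Vim held 0 matches. The N-box CACNAG, the letters bound by Hes proteins, was matched 4 times in the Hes1 window and 4 times in that of Notch1, where 2 matches overlap each other. It was matched 0 times in the windows of Nes, Sox2 and Vim. Of all windows, 37.2% held it at least once and 8.0% held it 2 or more times. A match is a string of letters and not a measured binding site, and the files hold no binding data.

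All 5 genes changed with time on both substrates, each along its own course, while 0 of the 5 passed the test between stiff and soft at any single time. Hes1 rose steeply by 12 h and then fell back. Vim, Sox2, Notch1 and, least of all, Nes fell by 12 h, after which Vim and Sox2 climbed again and Notch1 fell further by 24 h. Nes was highest at 36 h. Levels are given as CPM, counts scaled to library size with TMM factors, and changes as log2 fold changes. A change is called where the adjusted p of edgeR's quasi-likelihood test is under 0.05.

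**Figure D1:**
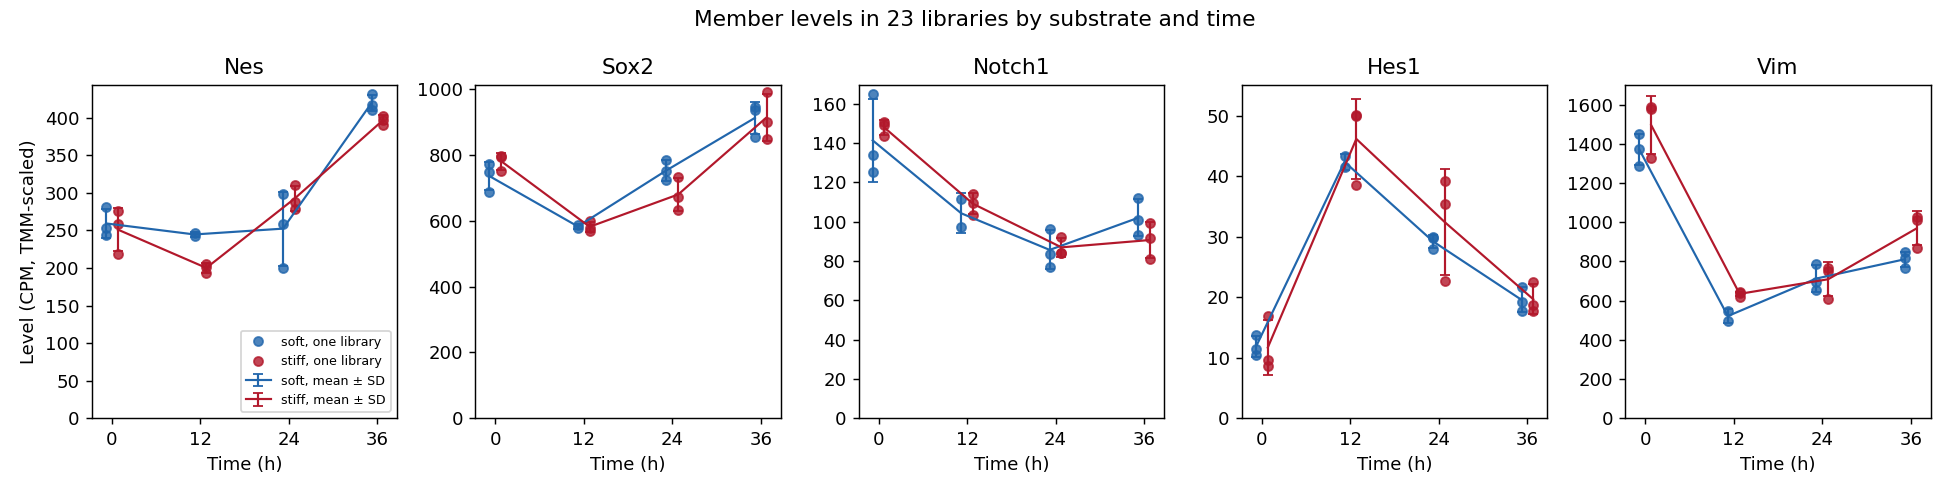
Level of each gene (CPM, TMM-scaled, linear axis from 0) against time in h, with soft in blue and stiff in red. Points are single libraries and lines join group means with SD bars. Hes1 peaks at 12 h, between 38.5 and 50.1 CPM, when Vim is at its lowest, between 496 and 643 CPM.

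Averaged over substrates, all 5 genes were called from 0 to 12 h, 1 up and 4 down, where 38.5% of the 11857 tested genes were called (19.8% up, 18.7% down). From 12 to 24 h again all 5 were called, 3 up and 2 down, with 46.3% of all tested genes called (23.7% up, 22.6% down). From 24 to 36 h 4 of the 5 were called, 3 up and 1 down, against 19.9% of all tested genes (9.81% up, 10.1% down). From 0 to 36 h all 5 were called, 3 up and 2 down, against 67.2% (34.2% up, 33% down). The shares are over genes of all levels. In mean CPM, Nes, Sox2, Notch1 and Vim stood above 94.8%, 98.7%, 83% and 99% of tested genes, and Hes1 above 49.2%. The part of level in the counts of calls was not tested, and the 5 genes were chosen with earlier results of these data known. Over the 5 genes the median size of change, as an absolute log2 fold change, was 0.43 from 0 to 12 h, 0.31 from 12 to 24 h, 0.35 from 24 to 36 h and 0.68 from 0 to 36 h, beside 0.27, 0.31, 0.18 and 0.52 over all tested genes. In these bulk libraries, fewer cells of a type and less RNA per cell cannot be told apart.

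Notch1, the receptor, declined over the first 24 h. On soft at 0 h it stood at 134, 125 and 165 CPM in rounds 1 to 3, and on stiff at 150, 144 and 149 CPM. At 12 h the soft libraries of rounds 1 and 3 were at 97.0 and 111 CPM and the stiff ones at 114, 104 and 110 CPM. All 5 libraries at 12 h lay below all 6 at 0 h. At 24 h the levels were 77.0, 83.4 and 96.4 CPM on soft and 84.2, 84.1 and 92.3 CPM on stiff, below every 12 h library in all 6 cases. At 36 h the levels were 92.9, 101 and 112 CPM on soft and 91.7, 80.8 and 99.4 CPM on stiff, and these ranges overlap those at 24 h.

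Averaged over substrates the log2 fold change of Notch1 was -0.43 from 0 to 12 h (SE 0.079, adjusted p = 4.42e-05) and -0.31 from 12 to 24 h (SE 0.08, adjusted p = 0.00179). The step from 24 to 36 h, at 0.15 (SE 0.076), did not pass the test (adjusted p = 0.167). Over the whole course Notch1 fell by 0.59 on the log2 scale (SE 0.075, adjusted p = 2.41e-08), which is 1.51-fold. The fall from 0 to 12 h was of the same size on soft and on stiff, at -0.43 on each, and its call on soft was lost without soft 12 h replicate 1 (adjusted p = 0.0967). Leaving out a library of soft at 12 h leaves 1 there, which is then assumed to vary like the other groups.

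Hes1, the Notch target, moved in the opposite direction to its receptor in the first step. At 0 h it stood at 13.7, 11.4 and 10.4 CPM on soft and at 9.59, 16.9 and 8.61 CPM on stiff. At 12 h it reached 43.3 and 41.5 CPM on soft and 38.5, 50.1 and 49.9 CPM on stiff. The lowest 12 h library was thus more than 2-fold above the highest 0 h library. These levels rest on few reads at 0 h, between 43 and 108 counts per library. The SD at 0 h was 38.6% of the mean on stiff, where round 2 stood above the other libraries, and 14.5% on soft.

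The rise of Hes1 averaged over substrates was 3.71-fold (log2 fold change 1.89, SE 0.147, adjusted p = 2.27e-12), and 2.37% of all tested genes had a larger absolute change in this step. It was 1.83 on soft (SE 0.215, adjusted p = 4.5e-08) and 1.95 on stiff (SE 0.202, adjusted p = 3.39e-09). The difference between these rises was 0.12, with a 95% interval from -0.49 to 0.73, and did not pass the test (adjusted p = 0.93).

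After 12 h the Hes1 level came down in each step. At 24 h it stood at 27.9, 29.8 and 29.95 CPM on soft and at 22.6, 39.25 and 35.3 CPM on stiff, so on soft all libraries lay below those at 12 h, whereas on stiff the ranges overlap. At 36 h it stood at 17.7, 21.7 and 19.3 CPM on soft and at 17.8, 22.5 and 18.7 CPM on stiff, each above every 0 h library. Averaged over substrates the change was -0.52 from 12 to 24 h (SE 0.135, adjusted p = 0.00194) and -0.63 from 24 to 36 h (SE 0.138, adjusted p = 0.001). From 24 to 36 h 8.35% of all tested genes had a larger absolute change. On soft alone this later step of Hes1 did not pass the test (log2 fold change -0.56, SE 0.198, adjusted p = 0.073). Within rounds, Hes1 was lower at the later time in every pair of libraries for both steps: 2 of 2 rounds on soft and 3 of 3 on stiff from 12 to 24 h, and 3 of 3 on each from 24 to 36 h. Compared with 0 h the 36 h level was 1.67-fold higher (log2 fold change 0.74, SE 0.153, adjusted p = 7.49e-05).

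Vim, which encodes vimentin, took the opposite course to Hes1 in each step when averaged over substrates. At 0 h it stood at 1375, 1288 and 1450 CPM on soft and at 1327, 1576 and 1586 CPM on stiff. At 12 h it was at 496 and 547 CPM on soft and at 621, 640 and 643 CPM on stiff, so the highest 12 h library, at 643 CPM, lay below the lowest at 0 h, at 1288 CPM. Averaged over substrates the fall was 2.49-fold (log2 fold change -1.32, SE 0.07, adjusted p = 1.25e-16), a larger absolute change than in all but 5.31% of tested genes.

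Vim then recovered in part. At 24 h the libraries stood at 787, 697 and 655 CPM on soft and at 608, 766 and 754 CPM on stiff, and at 36 h at 769, 819 and 846 CPM on soft and 870, 1027 and 1010 CPM on stiff. No 36 h library reached the lowest 0 h level of 1288 CPM. The log2 fold change averaged over substrates was 0.31 from 12 to 24 h (SE 0.068, adjusted p = 0.000408) and 0.32 from 24 to 36 h (SE 0.064, adjusted p = 0.00039). The first of these steps was 0.45 on soft (adjusted p = 0.000693) and 0.16 on stiff, which did not pass (adjusted p = 0.19). The second was 0.19 on soft, which did not pass (adjusted p = 0.225), and 0.45 on stiff (adjusted p = 0.000982). From 0 to 36 h Vim fell by 0.69 on the log2 scale (SE 0.064, adjusted p = 2.31e-11), with -0.76 on soft and -0.63 on stiff.

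**Figure D2:**
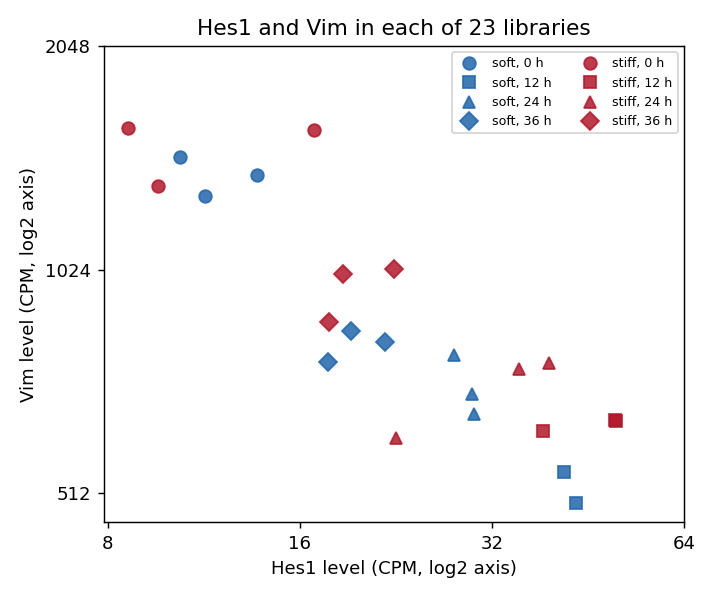
Vim level against Hes1 level in each of the 23 libraries (CPM, both axes on a log2 scale), with soft in blue, stiff in red and a symbol for each time; 2 of the stiff 12 h symbols lie on each other. The 0 h libraries lie at the upper left, with Hes1 at or below 16.9 CPM and Vim at or above 1288 CPM, and the 12 h libraries at the lower right.

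The plot of Vim against Hes1 shows the libraries ordered by time along a falling band, with 36 h between 0 h and 24 h. The points fall into groups set by time and share each library's scaling, so no correlation is given over them as a whole. With each group's mean taken out, Pearson's r of Hes1 with Vim (log2 CPM) was 0.47, so the falling band is one between times and not within groups. No p was computed for this value. On stiff, the round 1 library at 24 h had both the lowest Hes1 (22.6 CPM) and the lowest Vim (608 CPM) of the 24 h libraries.

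Nes, which encodes nestin, parted from Vim, its filament partner, in the course it took. At 0 h it stood at 253, 244 and 281 CPM on soft and 259, 219 and 276 CPM on stiff. At 12 h it was at 242 and 247 CPM on soft and at 206, 201 and 193 CPM on stiff, so the stiff libraries lay below all at 0 h while the soft ones lay among them. At 24 h the soft libraries were spread widely, at 200, 259 and 298 CPM, and the stiff ones stood at 288, 311 and 279 CPM. At 36 h all 6 libraries lay above every earlier one, at 416, 432 and 411 CPM on soft and 403, 391 and 397 CPM on stiff.

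The rise of Nes from 24 to 36 h was 1.5-fold averaged over substrates (log2 fold change 0.59, SE 0.07, adjusted p = 1.39e-07), and 9.64% of tested genes had a larger absolute change. From 0 to 36 h it rose 1.6-fold (log2 fold change 0.68, SE 0.07, adjusted p = 3.06e-10), by 0.70 on soft and 0.66 on stiff. The step from 12 to 24 h was 0.30 averaged over substrates (SE 0.075, adjusted p = 0.00165). The dip from 0 to 12 h was small, at -0.20 (SE 0.076, adjusted p = 0.0317). This call did not survive leaving out soft 12 h replicate 1 (adjusted p = 0.081) or 3 (0.0533), stiff 0 h replicate 1 (0.056) or 3 (0.09), or stiff 12 h replicate 3 (0.0653).

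Sox2, the stem cell transcription factor, dipped at 12 h and ended above its starting level. At 0 h it stood at 772, 689 and 747 CPM on soft and at 798, 751 and 795 CPM on stiff. At 12 h the 5 libraries were close together, at 588 and 578 CPM on soft and at 578, 569 and 599 CPM on stiff, all below every library of the other times. At 24 h the levels were 784, 751 and 723 CPM on soft and 674, 633 and 734 CPM on stiff. At 36 h they were 938, 856 and 944 CPM on soft and 992, 850 and 902 CPM on stiff, all above every earlier library.

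Averaged over substrates Sox2 changed by -0.38 from 0 to 12 h (SE 0.057, adjusted p = 1.89e-06), by 0.30 from 12 to 24 h (SE 0.056, adjusted p = 5.31e-05) and by 0.35 from 24 to 36 h (SE 0.053, adjusted p = 7.19e-06). From 0 to 36 h the gain was 1.2-fold (log2 fold change 0.27, SE 0.053, adjusted p = 4.02e-05), a size that 72% of all tested genes exceeded. It was 0.31 on soft and 0.23 on stiff, and the call on stiff (adjusted p = 0.00986) was lost without stiff 36 h replicate 1 (adjusted p = 0.0857).

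**Figure D3:**
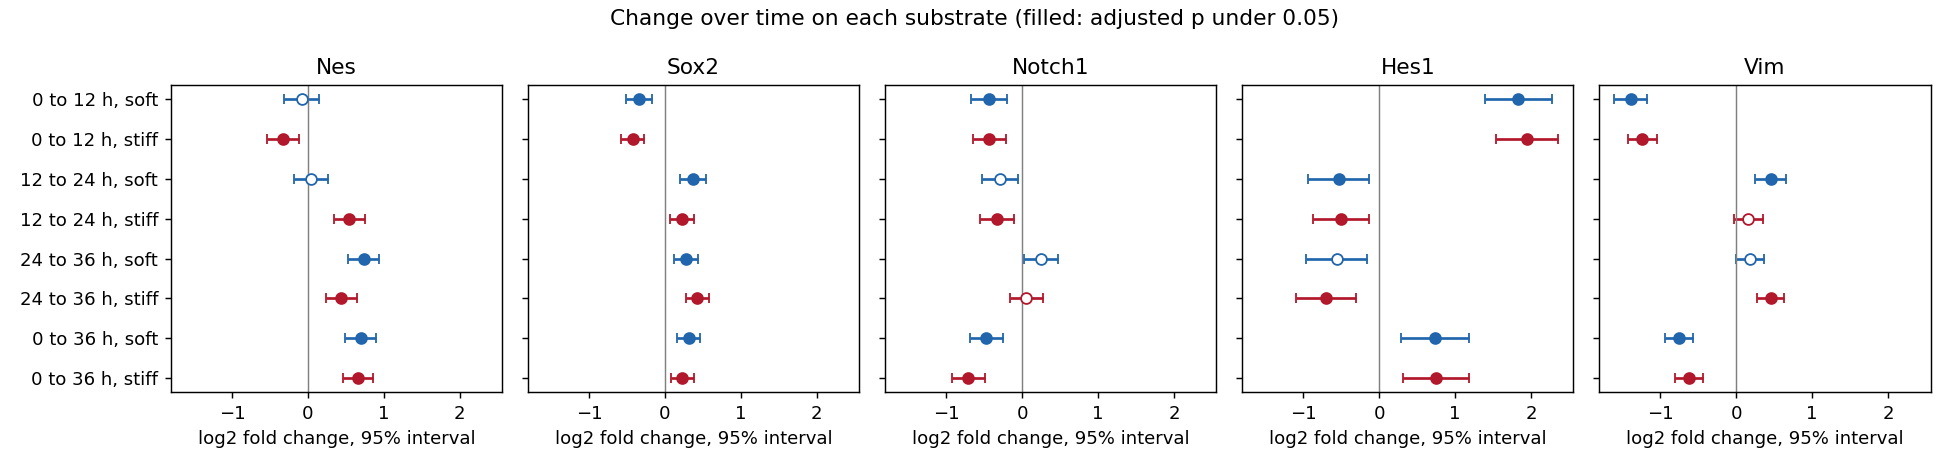
Log2 fold change with its 95% interval (horizontal axis) for each time step on soft (blue) and on stiff (red), 1 panel per gene; filled points passed the test at an adjusted p under 0.05. The first step of Hes1 (1.83 and 1.95) and of Vim (-1.39 and -1.24) are the longest and point in opposite directions.

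Within each substrate, the change from 0 to 36 h was called for all 5 genes on either one, where 54.2% and 57.5% of all tested genes were called, and each of the 5 had the same direction on both. From 0 to 12 h 4 of 5 were called on soft and 5 of 5 on stiff (29.1% and 21.5% of all tested genes). In this step the Nes call on stiff was lost in 3 of 13 alternatives and the Notch1 call on soft in 1 of 12. From 12 to 24 h the counts were 3 on soft and 4 on stiff (38.1% and 30.6%), and from 24 to 36 h 2 and 4 (9% and 9.89%). The count of 4 on stiff from 12 to 24 h became 2 without stiff 12 h replicate 1 or 2, and that of 2 on soft from 24 to 36 h became 1 without soft 24 h replicate 3 or soft 36 h replicate 1 or 3. The count of 3 on soft became 2 with no scaling factor, where Hes1 lost its call (edgeR adjusted p = 0.0795). Hes1 also lost it there without soft 24 h replicate 1 (0.0955), 2 (0.0576) or 3 (0.0514). It was lost too without soft 12 h replicate 1 (log2 fold change -0.50) or 3 (-0.54), fits that leave 1 library at that time. In all, this call of Hes1 on soft was lost in 6 of 12 alternatives. On stiff from 12 to 24 h, the call was lost in 4 of 13 alternatives for Hes1 and 5 of 13 for Notch1. From 24 to 36 h on stiff, Hes1 lost its call in 4 of 13.

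The series set out to identify genes whose expression depends on stiffness. For the 5 genes no difference between stiff and soft passed edgeR's quasi-likelihood test at 0, 12, 24 or 36 h. DESeq2 also called 0 of 5 at each time. At an unadjusted p under 0.05 there were 2 of the 5 at 12 h (Nes and Vim), 1 at 24 h (Nes), 1 at 36 h (Vim) and 0 at 0 h. Over all tested genes 6.6% were called at 12 h and 0.0675% at 36 h, with 0% for both 0 h and 24 h, so 0 of 5 is near the background at each time. Stiff and soft libraries did not overlap for 2 of the 5 genes at 12 h and 2 at 36 h, Nes and Vim in both cases, where 35.9% and 12.6% of all tested genes did not overlap, so the count at 12 h is near the background. At 0 h and 24 h it was 0 of the 5, against 7.98% and 7.78% of all tested genes. At 12 h the share of all tested genes rests on few libraries: it was made by 782 genes, and by 336 without soft 12 h replicate 3 and 502 without stiff 12 h replicate 2. At this time the soft libraries were also deeper, with 5428086 and 6519349 counts, than the stiff ones, with 2462360 to 4803755, out of a range of 2462360 to 6811157 over all libraries. The part of depth in the 12 h values was not tested.

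**Figure D4:**
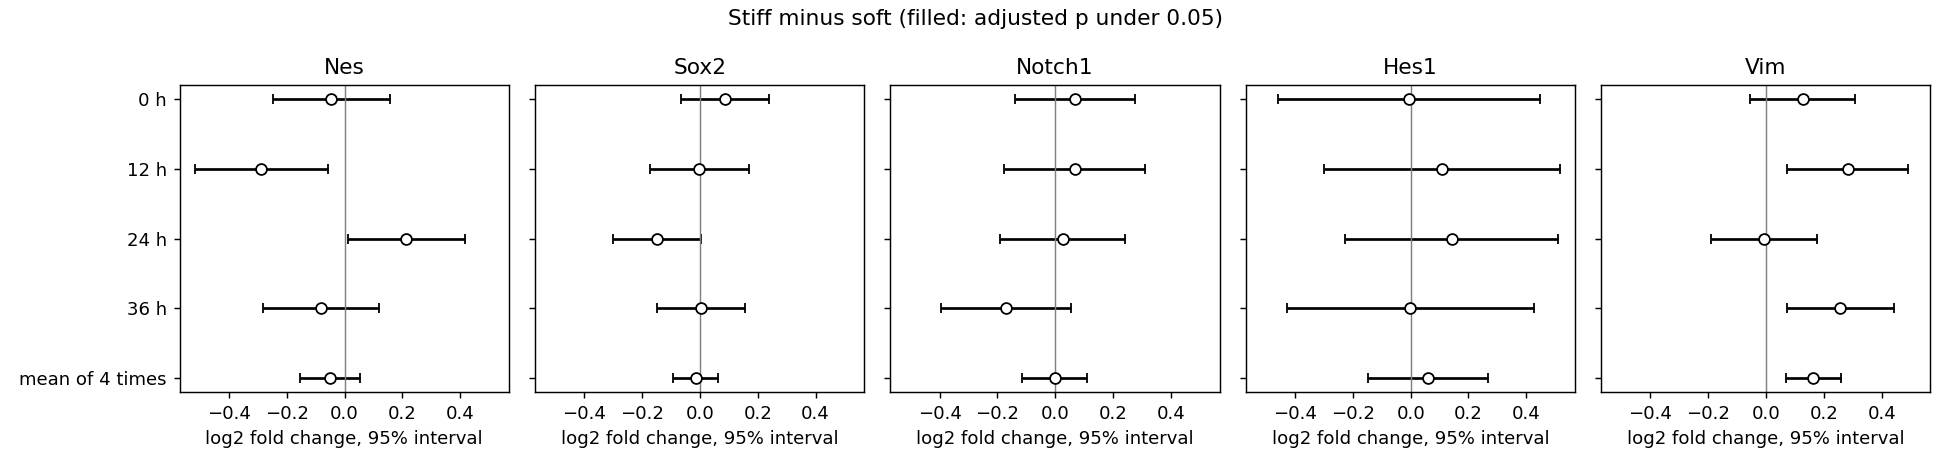
Log2 fold change of stiff over soft with its 95% interval (horizontal axis) at each time and for the mean of the 4 times, 1 panel per gene; a filled point would mark an adjusted p under 0.05 and there is none. The Vim points lie at 0.13, 0.28, -0.01 and 0.26, and the Hes1 intervals are the widest.

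Vim had the largest mean difference between substrates of the 5 genes. Its level was 521 ± 35.9 CPM on soft (SD, n = 2) and 635 ± 11.7 CPM on stiff (SD, n = 3) at 12 h, and 811 ± 39.5 CPM on soft and 969 ± 86.3 CPM on stiff at 36 h (SD, n = 3 each). At both times every stiff library lay above every soft one, beside the shares of 35.9% at 12 h and 12.6% at 36 h over all tested genes given above. The log2 fold change was 0.28 at 12 h (SE 0.103, adjusted p = 0.0963) and 0.26 at 36 h (SE 0.09, adjusted p = 0.455). Stiff was above soft in 2 of 2 rounds at 12 h and 3 of 3 at 36 h. At 0 h the log2 fold change was 0.13 (95% interval -0.06 to 0.31) and at 24 h -0.01 (-0.19 to 0.18), with overlapping libraries and stiff above soft in 2 of 3 rounds each time; in round 1 at 24 h it was -0.37. Averaged over the 4 times Vim was 1.12-fold higher on stiff (log2 fold change 0.16, SE 0.047, 95% interval 0.07 to 0.26), which did not pass edgeR's test after adjustment (adjusted p = 0.134). With no filter on low counts its adjusted p was 0.0258, and it was also below the threshold without soft 24 h replicate 1 (0.0431), stiff 0 h replicate 1 (0.0372) or stiff 24 h replicate 1 (0.0437). At 12 h alone it passed in a fit of the 12 h libraries only (adjusted p = 0.0219). Of the 5 genes 0 passed for this average by either tool, 1 had an unadjusted p under 0.05, and 0.447% of all tested genes were called. An unadjusted p under 0.05 was found for 1052 of the 11857 tested genes.

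Nes differed in direction between times. At 12 h it was 245 ± 3.61 CPM on soft (SD, n = 2) and 200 ± 6.13 CPM on stiff (SD, n = 3), with no overlap of the libraries, as in 35.9% of all tested genes, and a log2 fold change of -0.29 (SE 0.113, adjusted p = 0.13). At 24 h it was 252 ± 49.2 CPM on soft and 293 ± 16.7 CPM on stiff (SD, n = 3 each), with overlapping libraries and a log2 fold change of 0.21 (SE 0.099, adjusted p = 0.9999). At 36 h the groups again did not overlap (12.6% of all tested genes), at 420 ± 10.9 CPM on soft and 397 ± 5.96 CPM on stiff (SD, n = 3 each), but the difference was only -0.08 (95% interval -0.28 to 0.12). The F test of a stiffness effect that differs between times called 0 of the 5 genes by edgeR and by DESeq2, with Nes alone below an unadjusted 0.05 (its adjusted p = 0.213), and 3.31% of all tested genes were called. Below the unadjusted 0.05 lay 1612 of the 11857 tested genes. Without soft 24 h replicate 3 the F test called Nes (adjusted p = 0.0352). The effect at 12 h set against the mean of 0, 24 and 36 h was -0.32 for Nes (SE 0.127, adjusted p = 0.147), and 5.99% of all tested genes were called.

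The step of Nes from 12 to 24 h was larger on stiff than on soft, by a difference whose call most alternatives lost. It was 0.55 on stiff (SE 0.102, adjusted p = 8.23e-05), with 0.49, 0.63 and 0.53 in rounds 1 to 3, and 0.04 on soft (SE 0.111, adjusted p = 0.793), with -0.27 in round 1 and 0.27 in round 3. In a test added after the data had been seen, the difference between the steps was 0.50 (SE 0.15, 95% interval 0.20 to 0.81, adjusted p = 0.0476), just inside the threshold. Nes was the only gene of the 5 called in this comparison, where 4.44% of all tested genes were called (526 genes, and 279 without soft 12 h replicate 3). The call was lost in 14 of the 18 alternatives tried, with adjusted p from 0.0507 to 0.17 in those. They comprise RLE factors, no scaling factor, the filter at 5 CPM, the compared groups alone, and leaving out soft 12 h replicate 1 or 3, stiff 12 h replicate 1, 2 or 3, soft 24 h replicate 1 or 2, and stiff 24 h replicate 1, 2 or 3, among which the difference ran from 0.34 to 0.52. The same tests of the steps from 0 to 12 h, 24 to 36 h and 0 to 36 h called 0 of the 5 genes by edgeR and by DESeq2 (0, 2 and 0 at an unadjusted p under 0.05), where 1.87%, 0% and 0.00843% of all tested genes were called. In that order, 1376, 439 and 697 of the 11857 tested genes had an unadjusted p under 0.05.

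For Sox2, Notch1 and Hes1 no difference between stiff and soft was called, and the intervals of Hes1 were too wide to show that its levels were close. Averaged over the 4 times the difference of stiff from soft was -0.01 for Sox2 (95% interval -0.09 to 0.06), -0.00 for Notch1 (-0.11 to 0.11) and 0.06 for Hes1 (-0.15 to 0.27). The largest single-time value of Sox2 was -0.15 at 24 h (-0.30 to 0.01), that of Notch1 -0.17 at 36 h (-0.39 to 0.05) and that of Hes1 0.14 at 24 h (-0.23 to 0.51). At 12 h the intervals ran from -0.30 to 0.52 for Hes1 and from -0.17 to 0.17 for Sox2. At 0 h that of Hes1 ran from -0.46 to 0.45.

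Ordered by group mean, Hes1 ran from 12 h through 24 h and 36 h down to 0 h, with stiff and soft next to each other at each time and their libraries overlapping at each time. Between times, the libraries of neighbouring groups in that order did not overlap. For Notch1 the groups at 0 h stood above the others without overlap, and below them each of the 6 groups overlapped the next. For Vim the order ran from stiff and soft at 0 h through stiff and soft at 36 h, the 24 h groups, and stiff 12 h to soft 12 h. In it the neighbours overlapped except between soft at 0 h and stiff at 36 h, between stiff and soft at 36 h, and between stiff and soft at 12 h. For Sox2 both 36 h groups led and both 12 h groups came last, each pair apart from the 4 overlapping groups between. For Nes the 36 h groups led, soft above stiff, and stiff at 12 h was lowest, apart from soft at 12 h.

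The tested genes whose log2 CPM over the 23 libraries was most alike are known here by identifier only, so 2 that rose and 2 that fell are given. Pearson's r was 0.96 for ENSRNOG00000000886 with Notch1, and 0.95 each for ENSRNOG00000012514 with Sox2, ENSRNOG00000047513 with Notch1 and ENSRNOG00000024577 with Nes. From 0 to 36 h the pair most like Notch1 fell by 2.56 and 1.37 on the log2 scale, in that order, the one like Sox2 rose by 0.25 and the one like Nes by 0.70. The libraries share their time groups and scaling, so these values describe likeness of course and no p is given.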

How the data were processed

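Per the labels' protocols, sequencing used QuantSeq FWD libraries, a method that counts tags close to the 3′ ends of mRNAs. Build rn6, the aligner HISAT2 2.1.0, the counter HTSeq and the quality tool FastQC are named in the submitters' processing notes. Annotation release and strand setting: not given in the sources used here. The authors deposited raw counts per gene, which were not normalized. Totals ran from 2462360 to 6811157, which limits precision most for Hes1.

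The tests used edgeR 4.0.16 under R 4.3.3, with filterByExpr (minimum count 10, minimum total 15), TMM factors, 1 quasi-likelihood fit of 8 group means to 23 libraries, and Benjamini-Hochberg adjustment over the 11857 genes tested. SEs and 95% intervals follow from the F statistic. The script was tested on simulated data. Replicates within a group differed by more than sampling noise (chi-square per degree of freedom 2.42 to 9.11). All 5 genes were named by rule; genes most alike were ranked by Pearson's r, printing at most 2 that rose and 2 that fell. The gene lists for other Notch genes and cell types could not be used because identifiers matched no symbol, so the cell type label was not checked against markers beyond these 5. Genes and lists were chosen with earlier results of these data known. The 4 tests of steps between substrates were added after seeing the data. Promoter windows came from RefSeq (GRCr8), where 5 of 5 symbols matched. Alternatives were other scaling and filters, DESeq2 1.42.0, a replicate block, a fit restricted to the groups compared, and leaving out every library in turn. Figures used matplotlib 3.10.9.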

Additional observations from a re-analysis of the deposited data

Results flagged for a closer look

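The change of Nes from 12 to 24 h was picked out because the test of the difference between substrates passed: the step on stiff exceeded that on soft by 0.503 on the log2 scale (edgeR quasi-likelihood test, adjusted p = 0.0476). The step was up in 3 of 3 rounds on stiff and in 1 of 2 on soft. The comparison was added after the data were seen, soft at 12 h has 2 libraries, and the call was lost in 14 of 18 alternatives.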

How the results depend on the processing

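Each of the 115 tests of the 5 genes was recomputed under several alternatives that share most libraries. The 1940 recomputations are thus not separate results. Of 778 recomputations of tests that had passed, 728 still passed, 50 kept their direction without passing and 0 changed direction. The 50 were spread unevenly, with 14 on the Nes step difference of 12 to 24 h alone. Of 1162 recomputations of tests that had not passed, 13 passed, and 89 changed sign and again did not pass. Averaged over substrates, all calls of Hes1, Vim, Sox2 and Notch1 held under every alternative run. The step difference of 12 to 24 h between substrates called 0 of 5 genes with RLE factors, with no scaling factor, with at least 5 CPM in 3 libraries and with the compared groups alone (1 as reported), and 0 to 1 with a library left out. On stiff from 12 to 24 h, 2 genes were called with no scaling factor (4 as reported) and 2 to 4 with a library left out; on soft from 24 to 36 h it was 1 to 2. The mean over 4 times called 1 with no filter on low counts and 0 to 1 with a library left out, stiff against soft at 12 h called 1 in the compared groups alone, and the F test 0 to 1 with a library left out. The cause was not tested. Same-numbered soft and stiff libraries of a time deviated together in 4 of 11 pairs at r above 0.1 (range -0.03 to 0.15), so the numbers were not taken as pairs. Yet 20 of 23 libraries correlated best with one of their own number. Over all pairs of groups, 11 of 77 same-numbered pairs exceeded 0.1 (median 0.055), against 0 of 154 differently numbered ones (median -0.028). Libraries of one number thus shared some deviation, which the reported fit does not model. With the replicate block, Notch1 from 12 to 24 h on soft (log2 fold change -0.25, adjusted p = 0.0432) and Hes1 from 24 to 36 h on soft (-0.58, adjusted p = 0.0238) passed the test, and no other call of the 5 genes changed. Over all tested genes, the count called at 36 h between substrates (8) was 97 with no filter, 48 with the block, 47 with DESeq2 and 28 with those groups alone; for the mean over times (53) it was 147, 94 and 101 in the first 3; the F test (393) gave 674 with no filter. At 0 h and 24 h no filter gave 12 and 8. For the step differences of 24 to 36 h (0) and 0 to 36 h (1), no filter gave 14 and 23, DESeq2 1 and 2, the block 2 for the former and the compared groups alone 2 for the latter. With a library left out, gene counts moved by over 1.5 times at lowest to 336 at 12 h (782), 1 at 36 h (8, highest 13), 13 for the mean over times (53, highest 119), 160 for the F test and 325 for 12 h against the other times (710). The same held for 2150 from 0 to 12 h on soft (3455), 667 from 24 to 36 h on soft (1067), 540 from 24 to 36 h on stiff (1173), and 87, 279 and 0 for the step differences of 0 to 12, 12 to 24 and 0 to 36 h (222, 526 and 1); that of 24 to 36 h (0) reached 2 at highest.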
